A study of Homo sapiens with 2 samples.

Results

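FYN, JAK and STAT3 signalling genes were followed in SNU449, an established human cell line labelled as liver cancer cells. The 10 genes were chosen by name as parts of a non-canonical route from FZD2 through FYN to STAT3, by a rule that uses no measured value, although earlier results of these data were known. They are FYN, SRC, YES1 and LYN, which encode SRC-family kinases, JAK1 and JAK2, the shared receptor subunit gene IL6ST, the transcription factor genes STAT3 and STAT5B, and the feedback inhibitor gene SOCS3. All 10 were listed in both libraries, among 19316 genes listed in either. Levels are in FPKM, the fragments per kilobase of transcript scaled to library size, which can be compared between genes. Genes that reached 1 FPKM in either library were called measured, which held for 9 of the 10 and for 14377 genes in all.

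One library came from cells carrying an FZD2 shRNA and the other from cells carrying a control shRNA, each delivered by lentivirus and collected after 7 days. The labels give neither the shRNA sequence nor a selection step, and the series design text spells the line SNU499 where the sample labels write SNU449. Each group held 1 library, so no value has a replicate error and no difference between the conditions could be tested. Intervals are 95% intervals of the read counts in these libraries, which cover counting error only. Ratios are FZD2 shRNA over control, as log2 values of FPKM + 1 unless counts are named, and adding 1 understates the ratio of low genes.

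SRC-family kinases are membrane-tethered tyrosine kinases that act just below many receptors. In the IL-6 pathway, the cytokine brings together its receptor and the signalling subunit gp130, JAK kinases bound to gp130 phosphorylate STAT3, and STAT3 moves to the nucleus and switches on genes such as SOCS3, whose product shuts off the JAKs. In liver this route drives the acute phase response. FZD2, a receptor for WNT5A, has been linked in other cancer cells to STAT3 phosphorylation through FYN. RNA levels say nothing about phosphorylation, which these libraries did not measure.

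The libraries held 8234592 expected counts (FZD2 shRNA) and 8436870 (control). FZD2 itself was at 15.76 FPKM in FZD2 shRNA cells and 59.45 FPKM in control cells, a log2 ratio of -1.85, which goes with the labels. Mitochondrial ribosomal RNA took 3.88% and 8.31% of the counts in these libraries. Over all measured genes the median log2 ratio was -0.0042, but it was -0.25 for the 8154 genes with whole counts and 0.48 for the 6223 genes with shared reads. A gene has shared reads here where its expected count was not whole in at least 1 library, a sign that some reads were divided among genes. The cell type label says liver and the growth protocol says prostate. ALB, the albumin gene, was at 0.05 FPKM in FZD2 shRNA cells and unlisted in control cells, whereas the fibrinogen gene FGG was at 123.36 and 100.72 FPKM. Of 18 hepatocyte markers 13 were listed and 3 measured, the fibrinogen genes FGG, FGB and FGA. They made up most of the list's sum of 246.37 FPKM (FZD2 shRNA) and 207.76 FPKM (control), and HNF4A was at 0 and 0.03 FPKM.

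Promoter sequences of STAT3, SOCS3 and IL6ST are shown because these genes are known to respond to STAT3 itself, and STAT3 lay above the control library here while SOCS3 and IL6ST lay below it. Each runs 5′ to 3′ from 250 bases before to 50 bases after a RefSeq start site (build GRCh38.p14), and all 3 lie on the minus strand. Capitals mark TTCNNGAA, a short-spaced form of the STAT-type palindrome, and the GC box GGGCGG or its reverse complement CCGCCC.
STAT3, chr17:42388393-42388692: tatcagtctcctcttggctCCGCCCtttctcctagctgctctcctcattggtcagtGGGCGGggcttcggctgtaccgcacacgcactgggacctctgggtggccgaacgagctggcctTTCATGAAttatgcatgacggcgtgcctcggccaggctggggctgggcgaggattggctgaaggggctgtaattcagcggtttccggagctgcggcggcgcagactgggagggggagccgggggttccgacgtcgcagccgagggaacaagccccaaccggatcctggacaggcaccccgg
SOCS3, chr17:78360876-78361175: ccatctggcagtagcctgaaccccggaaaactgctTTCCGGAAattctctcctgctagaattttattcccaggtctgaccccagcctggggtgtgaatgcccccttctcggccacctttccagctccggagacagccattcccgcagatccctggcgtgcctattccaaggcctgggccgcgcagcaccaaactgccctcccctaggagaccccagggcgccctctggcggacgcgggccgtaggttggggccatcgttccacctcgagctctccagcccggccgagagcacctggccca
IL6ST, chr5:55994914-55995213: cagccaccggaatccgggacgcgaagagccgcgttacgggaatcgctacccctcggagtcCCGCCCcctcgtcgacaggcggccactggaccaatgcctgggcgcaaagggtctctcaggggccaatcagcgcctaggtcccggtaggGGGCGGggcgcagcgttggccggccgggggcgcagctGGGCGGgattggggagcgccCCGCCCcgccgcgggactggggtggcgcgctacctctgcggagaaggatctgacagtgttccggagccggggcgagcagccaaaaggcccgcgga

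RefSeq windows were matched for 8 of the 10 genes (not SRC and LYN), with 17 windows in all, since several genes have more than 1 start. The palindrome TTCNNNGAA and its form with 4 bases between TTC and GAA, which read the same on both strands, were found in 0 of the 17 windows, against 7.66% and 6.44% of all 35116 windows. TTCNNGAA, also the same on both strands, was found once each in a window of STAT3, SOCS3 and JAK1, and in 7.74% of all windows. It began 131 bases before the start in STAT3 and 215 bases before it in SOCS3. A second SOCS3 window, at another start site, held no match to any of these motifs. A GC box, on either strand, was found in 8 of the 17 windows, with 4 matches in IL6ST and 2 in STAT3, and in 45.0% of all windows. The search covers these letters and windows only.

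In the SRC family, YES1 was higher in FZD2 shRNA cells, SRC and LYN were lower, and FYN was close to the detection limit in both libraries. FYN, the kinase named in the route, had 5 reads in FZD2 shRNA cells and 6 in control cells, or 0.20 FPKM (0.0649 to 0.467) and 0.19 FPKM (0.0697 to 0.414). Its level stood above 10.8% and 11.1% of the genes listed in these libraries. Its count log2 ratio was -0.23 with an interval of -2.28 to 1.75. Changes of FYN within that range, in either direction, could therefore not be told apart at this depth. The transcript length listed for FYN also differed, at 2959 bases (FZD2 shRNA) and 3628 bases (control), each resting on those few reads.

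SRC, the founding member of the family, had 376 reads and 11.12 FPKM in FZD2 shRNA cells, against 653 reads and 18.77 FPKM in control cells. That is a log2 ratio of -0.71, or 1.63-fold lower, and the count log2 ratio was -0.76 (-0.95 to -0.58). LYN, best known from blood cells, had 143 reads and 4.19 FPKM in FZD2 shRNA cells, against 240 reads and 6.78 FPKM in control cells. Its log2 ratio was -0.58, and its count log2 ratio was -0.71 (-1.02 to -0.41). SRC and LYN thus lay below the control by a similar size, and neither had shared reads. YES1, a widely expressed close relative of SRC and FYN, had 811.68 expected reads and 20.76 FPKM in FZD2 shRNA cells, against 656.62 expected reads and 16.35 FPKM in control cells. Its log2 ratio was 0.33 and its count log2 ratio 0.34 (0.19 to 0.49), and its reads were partly shared.

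The make-up of the family therefore differed between the libraries. This comparison needs no scaling between them, but it does not remove a difference between genes with shared reads and genes with whole counts. Summed over the 8 SRC-family genes, the level was 36.27 FPKM in FZD2 shRNA cells and 42.15 FPKM in control cells. YES1 made up 57.2% of that sum in FZD2 shRNA cells and 38.8% in control cells. SRC made up 30.7% in FZD2 shRNA cells and 44.5% in control cells, so the leading kinase by level was YES1 in the first and SRC in the second. In control cells, however, the counting intervals of SRC (17.4 to 20.3 FPKM) and YES1 (15.1 to 17.6 FPKM) overlapped. LYN made up 11.6% in FZD2 shRNA cells and 16.1% in control cells. FYN made up 0.551% in FZD2 shRNA cells and 0.451% in control cells.

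Among family members typical of blood cells, FGR and BLK were unlisted and LCK had 0 reads (FZD2 shRNA) and 1 read (control). Of 12 leukocyte markers 6 were listed, summing to 94.69 FPKM in FZD2 shRNA cells and 27.79 FPKM in control cells. LYZ, with shared reads, made up 71.47 and 12.31 FPKM of those sums. PTPRC, which encodes CD45, was at 1.61 FPKM (FZD2 shRNA) and 1.56 FPKM (control), and CD3E, CD3D, MS4A1, CSF1R and NKG7 were unlisted. In bulk RNA, fewer cells of a type and less RNA per cell cannot be told apart. Both libraries are labelled as an established cell line, however, and blood cells are not part of the design. LYN was lower in FZD2 shRNA cells (4.19 against 6.78 FPKM), whereas the marker sum was higher there. The part of these markers in the LYN value was not tested.

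**Figure D1:**
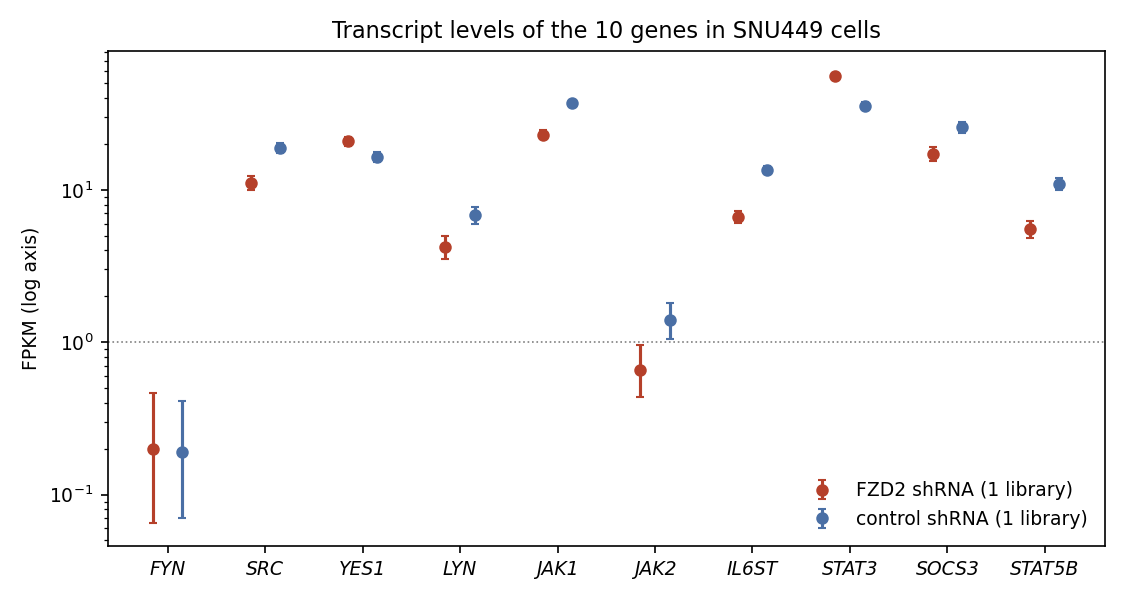
Level of each of the 10 genes in FPKM (log axis) in FZD2 shRNA cells (red, left) and the control library (blue, right), 1 library each, with 95% Poisson counting intervals. STAT3 and YES1 were higher in FZD2 shRNA cells, SRC, LYN, JAK1, JAK2, IL6ST, SOCS3 and STAT5B were lower, and FYN lay near 0.2 FPKM in both; the dotted line is 1 FPKM.

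Both JAK genes were lower in FZD2 shRNA cells. JAK1, the kinase through which gp130 chiefly signals, had 949 reads and 23.03 FPKM in FZD2 shRNA cells, against 1562 reads and 36.83 FPKM in control cells. Its log2 ratio was -0.65, or 1.57-fold lower, and its count log2 ratio was -0.68 (-0.80 to -0.57). JAK2, which serves the erythropoietin and growth hormone receptors as well, was scarce, with 26.97 expected reads and 0.66 FPKM in FZD2 shRNA cells, against 56.97 and 1.39 FPKM in control cells. Its log2 ratio was -0.53 on FPKM + 1, and its count log2 ratio was -1.04 with a wide interval (-1.76 to -0.36). JAK1 was by far the most abundant of the 4 JAK genes in both libraries, at 59.6% of their summed FPKM in FZD2 shRNA cells and 75.9% in control cells.

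JAK3, which pairs with the common gamma chain of lymphocyte cytokine receptors, was at 7.52 FPKM in FZD2 shRNA cells and 1.79 FPKM in control cells, a log2 ratio of 1.61. It had shared reads, and its share of the JAK sum was 19.5% (FZD2 shRNA) and 3.69% (control). TYK2, which partners JAK1 at interferon receptors, was at 7.40 FPKM in FZD2 shRNA cells and 8.52 FPKM in control cells, and its count interval included a ratio of 1 (-0.45 to 0.03).

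IL6ST, which encodes gp130, had the lowest log2 ratio of the 10 genes on FPKM + 1. It had 499.78 expected reads and 6.66 FPKM in FZD2 shRNA cells, against 1033.86 and 13.43 FPKM in control cells. Its log2 ratio was -0.91, or 1.88-fold lower, and its count log2 ratio was -1.01 (-1.17 to -0.86). Of 7 other receptor genes of the gp130 family 5 were measured. Of these, 0 passed 2-fold downwards and 1, IL6R, upwards, beside 7.41% and 15.2% of all measured genes. IL6R, the IL-6 binding subunit, was at 19.65 FPKM in FZD2 shRNA cells and 9.28 FPKM in control cells, a log2 ratio of 1.01 that rests on partly shared reads. Its count log2 ratio was 0.90 (0.72 to 1.08), and the 2-fold call was lost with TMM, DESeq2 size factors, counts scaled to totals, a pseudocount of 5 and the GC trend taken out. OSMR, the oncostatin M receptor, was at 10.89 FPKM (FZD2 shRNA) and 10.19 FPKM (control), and LIFR was near the detection limit at 0.11 and 0.20 FPKM. Among the 8 receptor genes of this family, IL6ST took 13.7% of the summed FPKM in FZD2 shRNA cells and 30.5% in control cells, and IL6R took 40.5% and 21.1%.

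Of the cytokines that act through gp130, LIF was at 15.20 FPKM in FZD2 shRNA cells and 30.89 FPKM in control cells, a log2 ratio of -0.98. IL6 was at 7.69 and 13.27 FPKM (-0.72, from 75 and 133 reads). IL11 was at 4.12 and 2.48 FPKM (0.56, shared reads). Of 11 ligand genes 5 were measured, with a median log2 ratio of -0.52. Of these, 0 were past 2-fold, beside 7.41% of all measured genes downwards and 15.2% upwards. On counts LIF passed 2-fold (-1.08, -1.24 to -0.93), and 1 ligand gene was past it with a pseudocount of 0.1, TMM, DESeq2 size factors, counts scaled to totals and the GC trend taken out.

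STAT3 was the most abundant of the 10 genes in FZD2 shRNA cells and was higher there than in control cells. It had 2283.18 expected reads and 55.80 FPKM in FZD2 shRNA cells, against 1503.39 and 35.53 FPKM in control cells. The log2 ratio was 0.64, or 1.55-fold higher, and the count log2 ratio was 0.64 (0.54 to 0.73). STAT3 reads were partly shared with other genes in an unknown amount, and the STAT3 ratio stood above 75.3% of all measured genes. STAT5B, which acts downstream of growth hormone and JAK2 in liver, had 236.90 expected reads and 5.49 FPKM in FZD2 shRNA cells, against 481.62 and 10.86 FPKM in control cells. Its log2 ratio was -0.87, or 1.83-fold lower, and its count log2 ratio was -0.99 (-1.22 to -0.76).

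STAT5B, STAT5A and STAT3 follow each other as neighbouring protein-coding genes on chromosome 17 in RefSeq, and their values differed in direction. STAT5A, the near-identical relative of STAT5B, was at 1.57 FPKM (FZD2 shRNA) and 1.49 FPKM (control), with a count interval that included a ratio of 1 (-0.51 to 0.64). STAT5A and STAT5B both had shared reads, so the split between them is uncertain. STAT6, which serves IL-4, and STAT2, which serves type I interferons, had log2 ratios of -0.28 and 0.25, STAT2 with shared reads. STAT3 made up 57.6% of the summed FPKM of the 7 STAT genes in FZD2 shRNA cells and 37.99% in control cells, and STAT5B made up 5.66% and 11.6%. The sum itself was 96.94 FPKM (FZD2 shRNA) and 93.53 FPKM (control).

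SOCS3, which is both a textbook STAT3 target and the inhibitor of gp130-bound JAKs, did not follow STAT3. It had 390 reads and 17.17 FPKM in FZD2 shRNA cells, against 599 reads and 25.68 FPKM in control cells. The log2 ratio was -0.55, or 1.47-fold lower, and the count log2 ratio was -0.58 (-0.77 to -0.40), from whole counts. It held 48.1% of the summed FPKM of the 8 SOCS and CISH genes in FZD2 shRNA cells and 49.0% in control cells, so its place in the family was nearly the same. SOCS2, a STAT5 target, was at 2.56 and 5.97 FPKM (-0.97) and SOCS5 at 2.93 and 6.55 FPKM (-0.94). SOCS7, with shared reads, went the other way at 6.48 and 3.24 FPKM (0.82), or 18.1% and 6.18% of the summed FPKM.

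**Figure D2:**
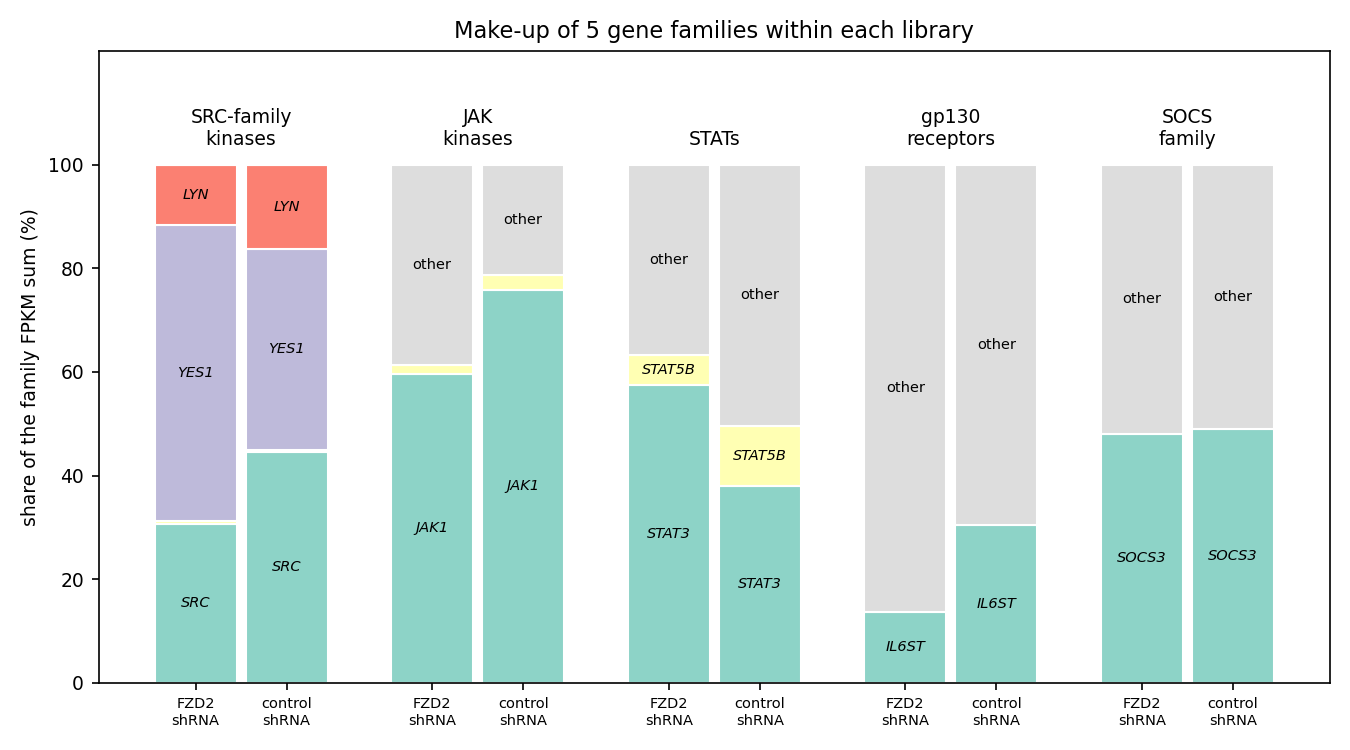
Share of each gene in the summed FPKM of its family (%), with the FZD2 shRNA library left and the control library right in each pair, 1 library each. YES1 (57.2% and 38.8%) and STAT3 (57.6% and 37.99%) took larger shares in FZD2 shRNA cells, and JAK1 (59.6% and 75.9%) and IL6ST (13.7% and 30.5%) smaller ones. The rest of each family is drawn in grey, and segments under 5% are not named.

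Ratios between genes within a library need no scaling between libraries, but they restate the same FPKM values. They also keep the gap between genes with shared reads (median log2 ratio 0.48) and genes with whole counts (-0.25). STAT3, YES1 and IL6ST had shared reads, whereas JAK1, SOCS3, SRC and LYN had whole counts. The part of that gap in these ratios was not tested. The STAT3 level was 2.42 times that of JAK1 in FZD2 shRNA cells and 0.965 times in control cells. Against IL6ST, STAT3 stood at 8.38 times in FZD2 shRNA cells and 2.65 times in control cells, and against SOCS3 at 3.25 and 1.38 times. YES1 stood at 1.87 times SRC in FZD2 shRNA cells and 0.871 times in control cells. By contrast, the ratio of SRC to LYN was 2.65 (FZD2 shRNA) and 2.77 (control), and that of JAK1 to SRC was 2.07 and 1.96, so these 3 genes kept nearly the same proportions.

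The order of levels shifted accordingly. In FZD2 shRNA cells it ran STAT3, JAK1, YES1, SOCS3, SRC, IL6ST, STAT5B, LYN, JAK2 and FYN, and the counting intervals of JAK1 and YES1, IL6ST and STAT5B, STAT5B and LYN, and JAK2 and FYN overlapped. In control cells it ran JAK1, STAT3, SOCS3, SRC, YES1, IL6ST, STAT5B, LYN, JAK2 and FYN, and JAK1 overlapped with STAT3 and SRC with YES1. STAT3 stood above 92.8% of listed genes in FZD2 shRNA cells and 88.9% in control cells, and IL6ST above 58.1% and 74.2%.

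None of the 9 measured genes differed by 2-fold or more on FPKM + 1, although IL6ST and JAK2 passed it on counts (-1.01 and -1.04). No all-gene share was taken for 2-fold calls on counts. Over all measured genes, 7.41% passed 2-fold downwards on FPKM + 1 and 15.2% upwards. With a limit of 1.5-fold, 4 of the 9 were lower (IL6ST, STAT5B, SRC and JAK1), beside 21.7% of all measured genes, and 1 was higher (STAT3), beside 26.1%. The counting interval lay wholly below a ratio of 1 for 7 of the 9 and wholly above it for 2, beside 36.8% and 35.5% of all measured genes. The median log2 ratio of the 9 was -0.58, against -0.0042 over all measured genes, and a single pair of libraries gives no measure of how far such a median varies between cultures.

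**Figure D3:**
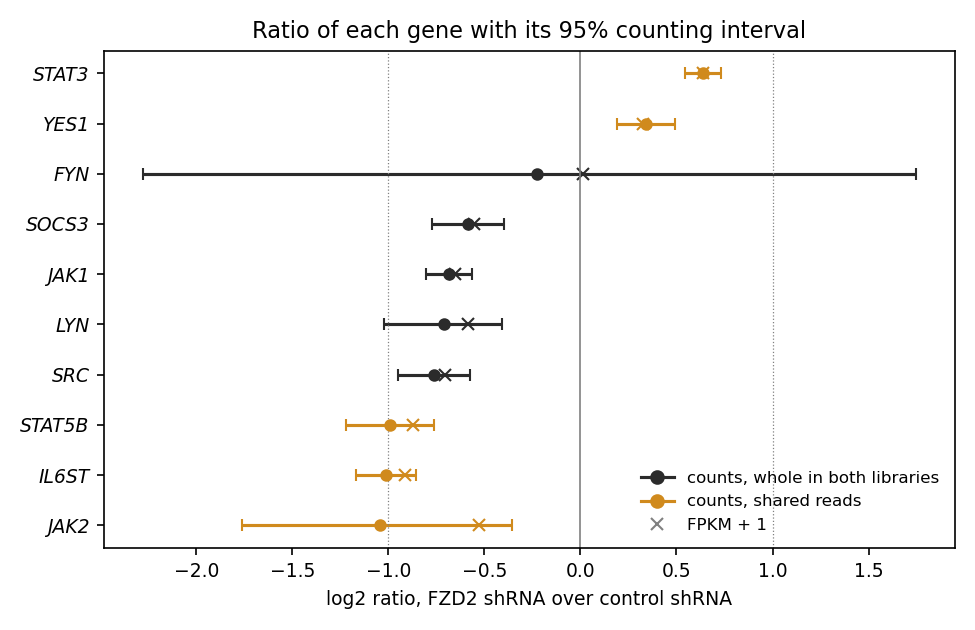
Log2 ratio of FZD2 shRNA over control for each gene, from expected counts with 95% exact counting intervals (circles) and from FPKM + 1 (crosses); orange marks genes with shared reads. The intervals of STAT3 and YES1 lay above 0, that of FYN spanned it (-2.28 to 1.75), and the other 7 lay below; dotted lines mark a ratio of 2-fold.

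The direction of these values can be set beside the split between genes with whole counts and genes with shared reads. SRC, LYN, JAK1 and SOCS3, all measured with whole counts, had log2 ratios from -0.71 to -0.55, and all 4 intervals lay below a ratio of 1, as they did for 48.1% of measured genes with whole counts (19.4% lay above). YES1, JAK2, IL6ST, STAT3 and STAT5B had shared reads, and their log2 ratios ran from -0.91 to 0.64. The 2 higher genes are both among them. YES1 (0.33) lay below the median of measured genes with shared reads (0.48), and STAT3 (0.64) lay above it. None of either class passed 2-fold, beside 10.2% lower and 4.19% higher for measured genes with whole counts, and 3.71% lower and 29.7% higher for those with shared reads. At 1.5-fold, 2 of the 4 whole-count genes were lower and 0 higher, beside 29.8% and 11.2% of their class, and 2 of the 5 genes with shared reads were lower and 1 higher, beside 11.1% and 45.5%. In that class 56.7% of measured genes had an interval above a ratio of 1 and 21.9% below, whereas 2 of these 5 genes lay above and 3 below. The part of shared reads in the YES1 and STAT3 values was not tested. Transcript GC content also moved with the ratios: among measured genes with whole counts, the median log2 ratio was -0.53 in the 2017 genes lowest in GC content and 0.10 in the 2016 highest. YES1 transcripts had 37.8% GC and IL6ST 37.3%, STAT3 had 50.4%, SRC 59.3% and SOCS3 60.0%. With the GC trend taken out, YES1 was at 0.52, STAT3 at 0.65, IL6ST at -0.72 and SOCS3 at -0.90, and SRC was at -1.03, past 2-fold in that setting.

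**Figure D4:**
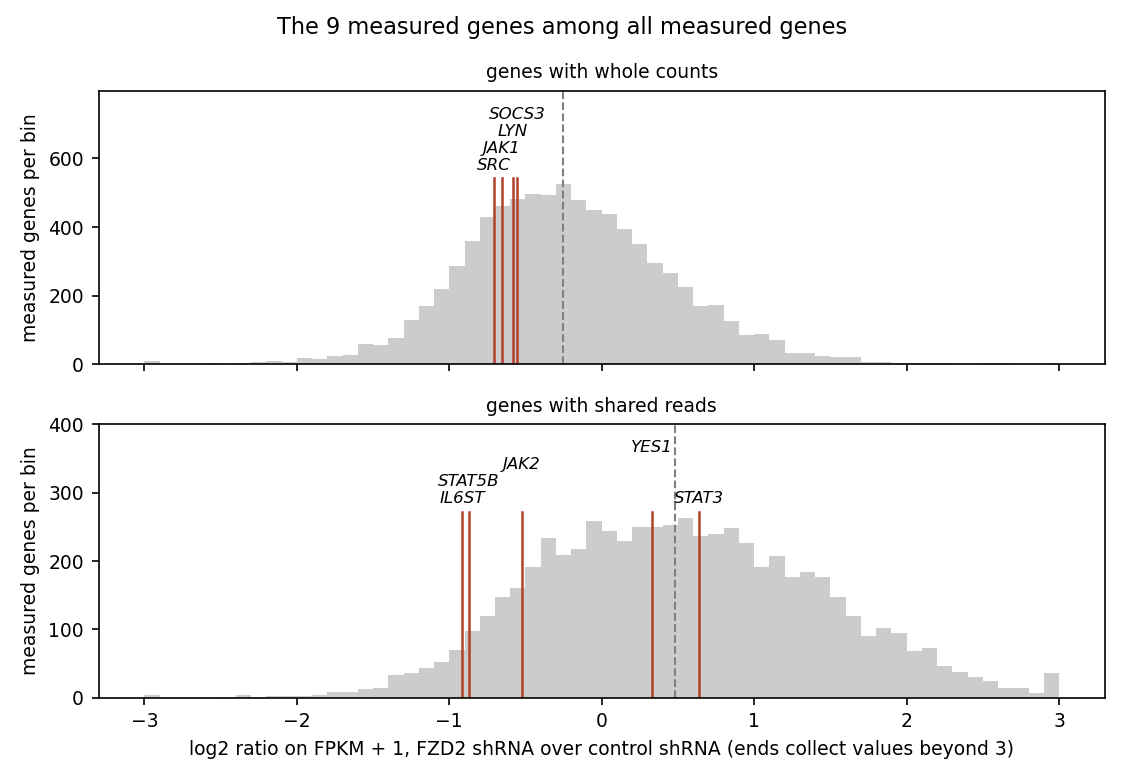
Number of measured genes by log2 ratio on FPKM + 1 (FZD2 shRNA over control, bins of 0.1), for genes with whole counts (top) and with shared reads (bottom), with the 9 measured genes as red lines and the median of each class dashed. All 4 whole-count genes lay below the class median of -0.25. Among genes with shared reads, STAT3 lay just above the class median of 0.48 and YES1 (0.33) below it, while IL6ST, STAT5B and JAK2 lay in the lower part.

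Genes around these 10 were described from 14 related lists, which together held 135 measured genes. Of these, 12 were at least 2-fold lower and 8 at least 2-fold higher (8.89% and 5.93%, beside 7.41% and 15.2% of all measured genes), with a median log2 ratio of -0.13. Of the 8 higher genes 5 had shared reads, and of the 12 lower genes 2 did. Among all measured genes, 1846 of the 2188 higher genes and 231 of the 1066 lower genes had shared reads. The 12 lower genes include FZD2, the target of the shRNA, whose fall was set by the design.

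Among 10 measured regulators of SRC-family kinases, the median was -0.28. Of these, 1 was at least 2-fold lower and 1 higher, beside 7.41% and 15.2% of all measured genes. CSK, the kinase that switches SRC off, was at 15.25 FPKM in FZD2 shRNA cells and 14.53 FPKM in control cells. PAG1, the membrane adaptor that recruits CSK, was at 3.63 and 1.00 FPKM (1.21, shared reads). PTPN1, a phosphatase that acts on SRC and JAK2, was at 15.60 and 36.96 FPKM (-1.19), and PTPN12 was at 20.15 and 39.19 FPKM (-0.93), both from whole counts. The PAG1 call was lost with a pseudocount of 5. CSK was named after its values were seen. PTK6, a kinase related to the SRC family, was at 38.23 FPKM in FZD2 shRNA cells and 6.89 FPKM in control cells (2.31), from partly shared reads.

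Substrates and adhesion adaptors of SRC had a median of -0.29 over 16 measured genes. Of these, 3 were at least 2-fold lower and 0 higher, beside 7.41% and 15.2% of all measured genes. The 3 lower genes included PTK2, focal adhesion kinase, with shared reads (13.79 FPKM in FZD2 shRNA cells and 38.12 FPKM in control cells, -1.40). The others were the actin-binding protein gene CTTN (23.38 and 59.11 FPKM, -1.30) and the docking protein gene BCAR1 (27.58 and 66.79 FPKM, -1.25). These 3 ratios were larger in size than that of SRC itself (-0.71). STAP2, an adaptor that binds STAT3, was at 21.25 and 11.97 FPKM (0.78, shared reads).

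Inhibitors of JAKs and STATs were 0 lower and 0 higher by 2-fold among 15 measured genes, beside 7.41% and 15.2% of all measured genes. The list's median was -0.14 (-0.43 with the GC trend taken out). The 2-fold count rests on the added 1: it was 4 lower with a pseudocount of 0.1. On counts SOCS2 (-1.23), SOCS5 (-1.18), SOCS6 (-1.13), SH2B3 (-1.04) and SOCS4 (-1.01, named after its value was seen) passed 2-fold, all downwards. No share of all measured genes past 2-fold on counts was taken to set beside these calls. The list held 7 counting intervals below a ratio of 1 and 3 above, beside 36.8% and 35.5% of all measured genes. The 3 above were SOCS7 (0.999 on counts, 0.76 to 1.24), PIAS2 (0.87, 0.66 to 1.08) and PTPN2 (0.95, 0.76 to 1.16). All 3 had shared reads and were named after their values were seen. SH2B3, an adaptor that restrains JAK2, was at 6.38 FPKM in FZD2 shRNA cells and 12.91 FPKM in control cells (-0.91), and SOCS6 at 2.07 and 4.52 FPKM (-0.85). Other receptors that use JAKs held 11 measured genes. Of these, 1 was at least 2-fold lower and 0 higher, beside 7.41% and 15.2% of all measured genes. The lower gene was IFNGR1, the ligand-binding chain of the interferon gamma receptor, at 2.89 and 11.18 FPKM (-1.65). Of 11 measured STAT3 partners and cofactors, HDAC1, a histone deacetylase, alone passed 2-fold, at 21.76 and 64.92 FPKM (-1.53). The same 7.41% and 15.2% of all measured genes stand beside that count.

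STAT3 target genes were mixed. Of 31 measured, 4 passed 2-fold downwards and 3 upwards, beside 7.41% and 15.2% of all measured genes, with a median of -0.16. Of the 31 counting intervals, 16 lay below a ratio of 1 and 11 above, beside 36.8% and 35.5% of all measured genes. VEGFA (8.06 FPKM in FZD2 shRNA cells and 25.79 FPKM in control cells, -1.56), HIF1A (-1.40), MYC (-1.34) and FAS (-1.13) were lower, all from whole counts. IRF1, an interferon-response factor with shared reads, was at 86.50 and 30.79 FPKM (1.46), MUC1 at 6.71 and 1.81 FPKM (1.46) and IL6R at 1.01 on the log2 scale, a call that counts did not give. The higher count was 1 with a pseudocount of 5 and 5 in TPM. The survival genes MCL1 (-0.89) and BCL2L1 (-0.10), the cyclin gene CCND1 (0.37) and the kinase gene PIM1 (-0.15) did not reach 2-fold. MYC, FAS, MCL1, BCL2L1, CCND1 and PIM1 were named after their values were seen.

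Acute phase genes are the liver readout of IL-6 and STAT3. Of 21 in the list, 15 were listed in either library, 6 were unlisted and only 9 were measured. Of these 9, 0 passed 2-fold downwards and 1 upwards, beside 7.41% and 15.2% of all measured genes. LCN2, lipocalin, was at 17.12 FPKM in FZD2 shRNA cells and 7.42 FPKM in control cells (1.11, whole counts), a call lost with a pseudocount of 5 and with the GC trend taken out, and the serum amyloid genes SAA2 (4.55 and 2.04 FPKM, 0.87) and SAA1 (6.49 and 4.13 FPKM, 0.55) had shared reads. CP, ceruloplasmin, was at 32.54 and 22.57 FPKM (0.51). The list's median was 0.29, with 6 counting intervals above a ratio of 1 and 0 below, beside 35.5% and 36.8% of all measured genes. Of 9 measured STAT5 targets 0 passed 2-fold, with a median of 0.37 (0.02 over the 7 with whole counts). GHR, the growth hormone receptor gene, was at 1.52 and 0.31 FPKM (0.94) and IGF1 at 1.04 and 0.20 FPKM (0.77), both low and with shared reads. On counts GHR (2.36), IGF1 (2.43) and SOCS2 (-1.23) passed 2-fold, and with a pseudocount of 0.1 the list held 1 gene lower and 2 higher. Neither setting has an all-gene share to set beside it.

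Upstream of the route, WNT5A, the ligand most often paired with FZD2 signalling, was at 2.24 FPKM in FZD2 shRNA cells and 4.85 FPKM in control cells (-0.85), whereas its relative WNT5B was at 166.85 and 78.72 FPKM (1.07). The receptor genes RYK, ROR1 and ROR2, named after their values were seen, were at 7.72, 0.29 and 0.38 FPKM in FZD2 shRNA cells and at 14.11, 0.18 and 0.20 FPKM in control cells. In the list of 13 measured genes around FZD2 and WNT5A, 2 were past 2-fold downwards, FZD2 and WNT3 (0.53 FPKM in FZD2 shRNA cells and 2.84 FPKM in control cells, -1.33), and 1 upwards, WNT5B, with a median of -0.55. These counts stand beside 7.41% and 15.2% of all measured genes. FZD2 is the target of the shRNA, so its fall was set by the design, yet the lower count and the median include it. The 8 genes of the list with whole counts leave FZD2 out. Of these, 1 was lower and 1 higher, with a median of -0.67. Over all 13 genes with the GC trend taken out, the WNT5B call was lost and the median was -0.81. With a pseudocount of 0.1 the lower count of the 13 was 5.

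**Figure D5:**
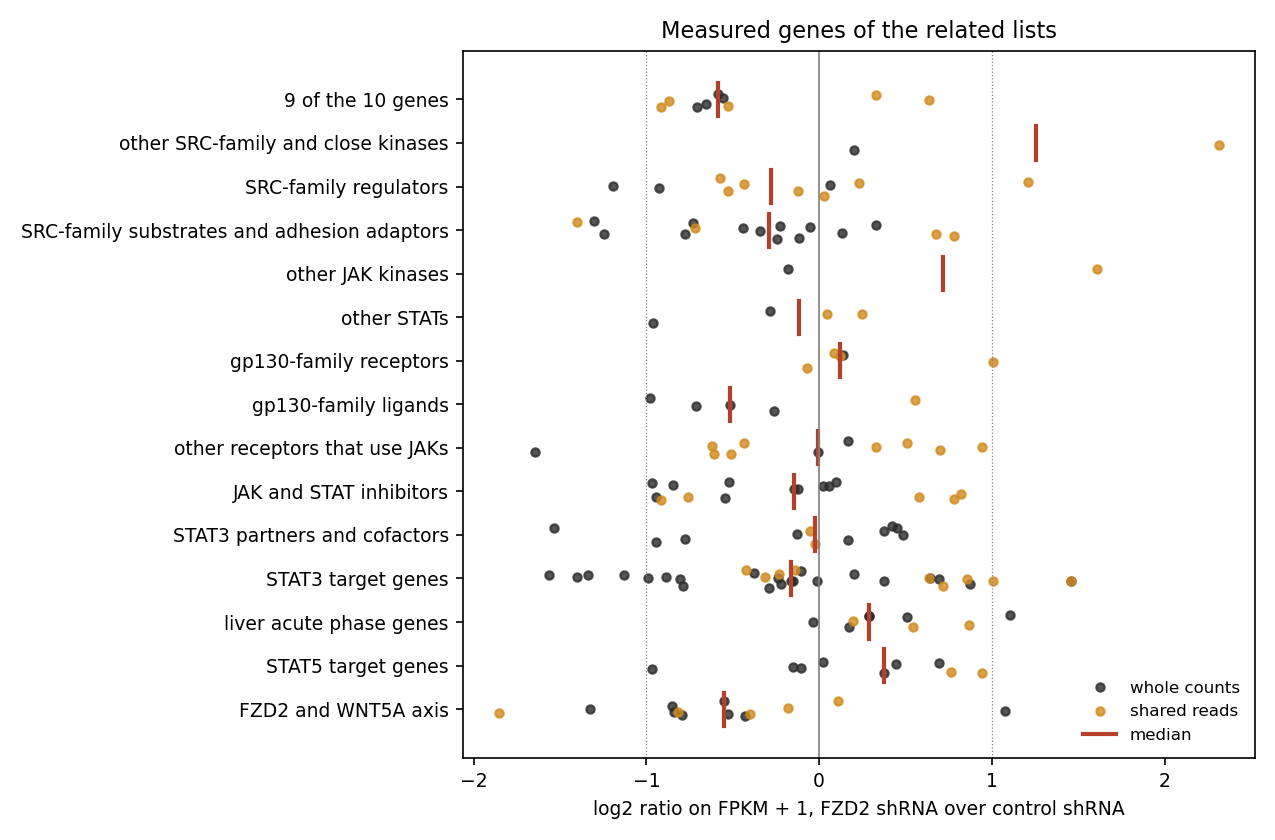
Log2 ratio on FPKM + 1 (FZD2 shRNA over control) of every measured gene in the 10-gene set and in 14 related lists, with black for whole counts, orange for shared reads and a red bar for the list median. The acute phase median (0.29) lay above 0 and that of the 9 measured genes (-0.58) below; dotted lines mark 2-fold.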

How the data were processed

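Poly(A) RNA of 2 SNU449 libraries was sequenced on a BGISEQ-500, per the labels' protocols and series design. Bowtie2, HISAT and the build hg19 appear in the submitters' processing notes without versions, and the read counter, annotation and strandedness were not given in the sources used here. In the deposited tables, expected counts are estimated reads per gene, unnormalized and sometimes fractional. The FPKM values in them were scaled by the authors to length and library size. Per the file headers a length is given per gene. Unlisted genes were set to 0. Entrez identifiers were paired with RefSeq symbols (19229 of 19316). As RefSeq and the files differ in build, coordinates are given for promoter windows only.

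Ratios of FZD2 shRNA to control were taken on the log2 scale after adding a pseudocount of 1 to both FPKM values, for genes of at least 1 FPKM in either library. Count ratios were scaled to library totals, with 95% exact conditional binomial intervals on rounded counts. Intervals of levels are exact Poisson intervals. Amplified copies of a molecule are counted separately, so all intervals cover counting error only. Whole means within 0.001. No test of the condition was possible. Shares of all measured genes were taken on FPKM + 1 and by counting interval. Calls of 2-fold on counts or in other settings have no such share beside them. GC content came from GENCODE release 29 transcripts matched by RefSeq accession (96.1% of measured genes) or else, as for SRC, by symbol (96.8% in all), and the lowess trend (fraction 0.3) was fitted to genes with whole counts. edgeR 4.0.16 (TMM) and DESeq2 1.42.0 supplied scaling factors on rounded counts for alternatives, which like counts scaled to totals had 1 added to each scaled value, whereas the count log2 ratios printed with intervals had nothing added. Calculations used Python 3.11.15, SciPy 1.17.1, statsmodels 0.14.6 and R 4.3.3, and ratios and intervals were tested on simulated counts.

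The 10 genes and the related lists were chosen with earlier results of these data known. Named genes were the 10 and FZD2, up to 4 measured genes per list with the largest ratio in size, and any measured gene of a list of at most 7 symbols. Other genes, LIFR, LCK and the marker genes included, were named after their values were seen, and some list genes are not reported here.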

Additional observations from a re-analysis of the deposited data

How the results depend on the processing

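No paired analysis was possible because each group held 1 library. The 9 measured genes of the 10 kept their direction in pseudocounts of 0.1 and 5, TPM, the median ratio set to 0, TMM, DESeq2 size factors, counts scaled to library totals and the GC trend taken out. STAT3 ranged from 0.59 to 0.80, YES1 from 0.27 to 0.52, IL6ST from -1.02 to -0.66 and SOCS3 from -0.90 to -0.41, while FYN spanned 0 (-0.10 to 0.15). The count of the 10 genes at least 2-fold lower was 0, but 1 (IL6ST) with a pseudocount of 0.1, with DESeq2 size factors and in counts scaled to library totals (with 1 added to each scaled value; with nothing added, JAK2 also passed in counts scaled to library totals), and 1 (SRC) with the GC trend taken out. It was 4 lower and 1 higher with a limit of 1.5-fold, and 7 lower and 2 higher by counting interval. Their median stayed between -0.70 and -0.43 over all settings tried, means and whole-count genes included.

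Among the related-list genes, 12 lower and 8 higher by 2-fold, the lower count was 24 with a pseudocount of 0.1, with DESeq2 size factors and in counts scaled to library totals, and 23 with TMM. The higher count was 3 with a pseudocount of 5 and over genes with whole counts, and 14 in TPM. Of the 135 genes, a limit of 1.5-fold gave 36 lower and 22 higher, beside 21.7% and 26.1% of all measured genes. The counting interval gave 64 lower and 41 higher, beside 36.8% and 35.5%. A limit of 4-fold gave 0 lower and 1 higher. No all-gene share was taken at 4-fold or under the other scalings and pseudocounts, so those counts are given without one. The related-list median of -0.13 turned to 0.0112 in TPM, which moves the median of all measured genes up by 0.14. Depth limits FYN most, with 5 and 6 reads, then JAK2.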
